A study of Rattus norvegicus with 3 samples.

Results

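The genes described here are 9 of the 20896 genes listed in the tables, chosen by name for their role in transforming growth factor beta (TGF-beta) and bone morphogenetic protein (BMP) signalling. They comprise the ligand genes Tgfb1 (ENSRNOG00000020652), Tgfb2 (ENSRNOG00000002418), Tgfb3 (ENSRNOG00000009867) and Bmp2 (ENSRNOG00000021276). The receptor genes are Tgfbr1 (ENSRNOG00000007036), Tgfbr2 (ENSRNOG00000013265), Tgfbr3 (ENSRNOG00000002093) and Bmpr1a (ENSRNOG00000052469), and Tgfbi (ENSRNOG00000012216) stands for the genes that TGF-beta induces. All 9 were listed in all 3 libraries.

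TGF-beta ligands are secreted in a latent form, are released in the matrix and bind the type II receptor TGFBR2, which then recruits and phosphorylates the type I receptor TGFBR1, so that SMAD proteins carry the signal to the nucleus. BMP2 acts in a parallel way through type I receptors such as BMPR1A, and TGFBR3 (betaglycan) is a co-receptor that presents ligand and binds TGF-beta2 in particular. In joint tissue TGF-beta is known for keeping cartilage matrix in balance and for coupling bone resorption to bone formation, and BMP2 for driving chondrocyte maturation and bone formation.

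The study placed a unilateral anterior crossbite (UAC), which overloads the temporomandibular joint of the rat, and asked what extra miR-330, a microRNA, does to the loaded joint. WT SD rats kept under SPF conditions received adeno-associated virus (AAV) by injection into this joint, and 24 rats were divided at random into 3 groups: a sham group and a UAC group that both received Vector AAV, and a second UAC group that received miR-330 AAV. They were kept for 8 weeks, and condylar cartilage with subchondral bone went to single-cell RNA sequencing on the 10x Genomics platform. The 16 condyles of the 8 rats of a group were mixed into 1 library, so each condition had 1 library, no value has replicates, and differences between rats, dissociations and libraries cannot be told apart from those between conditions.

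The libraries held 77668015 unique molecular identifiers (UMIs, captured RNA molecules) in the sham group, 92629658 in the UAC group and 97255383 in the UAC + miR-330 group, in 15, 18 and 19 clusters of cells. Groups of 3 values below follow this order of libraries. Levels are UMIs of a gene per 1000000 UMIs of a cluster or library (CPM), with the exact Poisson 95% interval in parentheses where one is given, and ratios are log2 ratios after 0.5 UMI was added to each count, with exact binomial 95% intervals. These intervals cover counting error only, and no test between conditions was made. A gene was counted as higher or lower where its ratio was at least 1.5-fold and the libraries compared held at least 50 of its UMIs together. The tables hold sums over clusters and no cell barcodes, so barcodes shared between libraries were not counted, and fewer cells of a type cannot be told apart from less RNA per cell.

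The labels name the tissue as cartilage and subchondral bone and the cells as chondrocytes and osteoclasts. In each library 1 cluster carried the cartilage and bone genes, with 17, 18 and 18 of 20 chondrocyte markers enriched together with 6, 7 and 6 of 11 osteogenic and 7, 7 and 7 of 12 fibroblast markers. It is called the skeletal cluster and made up 11.6%, 6.46% and 6.05% of all UMIs. Its leading genes held a marker of another class in the sham library (Cdh5, endothelial) and in the UAC + miR-330 library (Mepe, osteogenic), so its class is compared by number only. A cluster with 11, 9 and 10 of 12 macrophage markers enriched, called the macrophage-marker cluster, held 4.36%, 6.33% and 6.16% of UMIs. In the UAC library its leading genes held a dendritic cell marker (Clec10a) and none of its own class, so it too is compared by number only. No cluster was named osteoclast: in the skeletal cluster Atp6v0d2, Ocstamp, Dcstamp and Calcr were at 0 UMIs in all 3 libraries, and in the macrophage-marker cluster Dcstamp was. There 6, 7 and 6 of the 8 osteoclast markers had UMIs and summed to 192, 133 and 65.1 CPM, led by Acp5 at 153 CPM, Acp5 at 57.3 CPM and Oscar at 31.4 CPM, with Calcr also at 0 in the sham and UAC + miR-330 libraries, so osteoclasts within this cluster were not told apart. Clusters named B cell held 33.8%, 34.9% and 28.4% of UMIs. The last share leaves out the cluster highest in Dntt (3.71% of UMIs), unnamed in the UAC + miR-330 library because its leading genes held an endothelial marker. The UAC share counts a cluster with Rpl3l and Gpr171 among its leading genes (7.23% of UMIs). Clusters with these leading genes were unnamed in the sham (7.08%) and UAC + miR-330 (5.70%) libraries, so the 3 shares are not like for like. The labelled cell types thus cover a small part of each library and marrow cells a large one.

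The members fell into separate patterns across clusters. Tgfb2, Tgfb3, Bmp2, Bmpr1a and Tgfbi were highest in the skeletal cluster in all 3 libraries, whereas Tgfb1, Tgfbr1, Tgfbr2 and Tgfbr3 were highest in clusters of blood cells or their precursors in all 3. The TGF-beta receptor genes therefore had their highest levels outside the cluster that held most Tgfb2 and Tgfb3, as the map of levels by cluster shows.

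**Figure D1:**
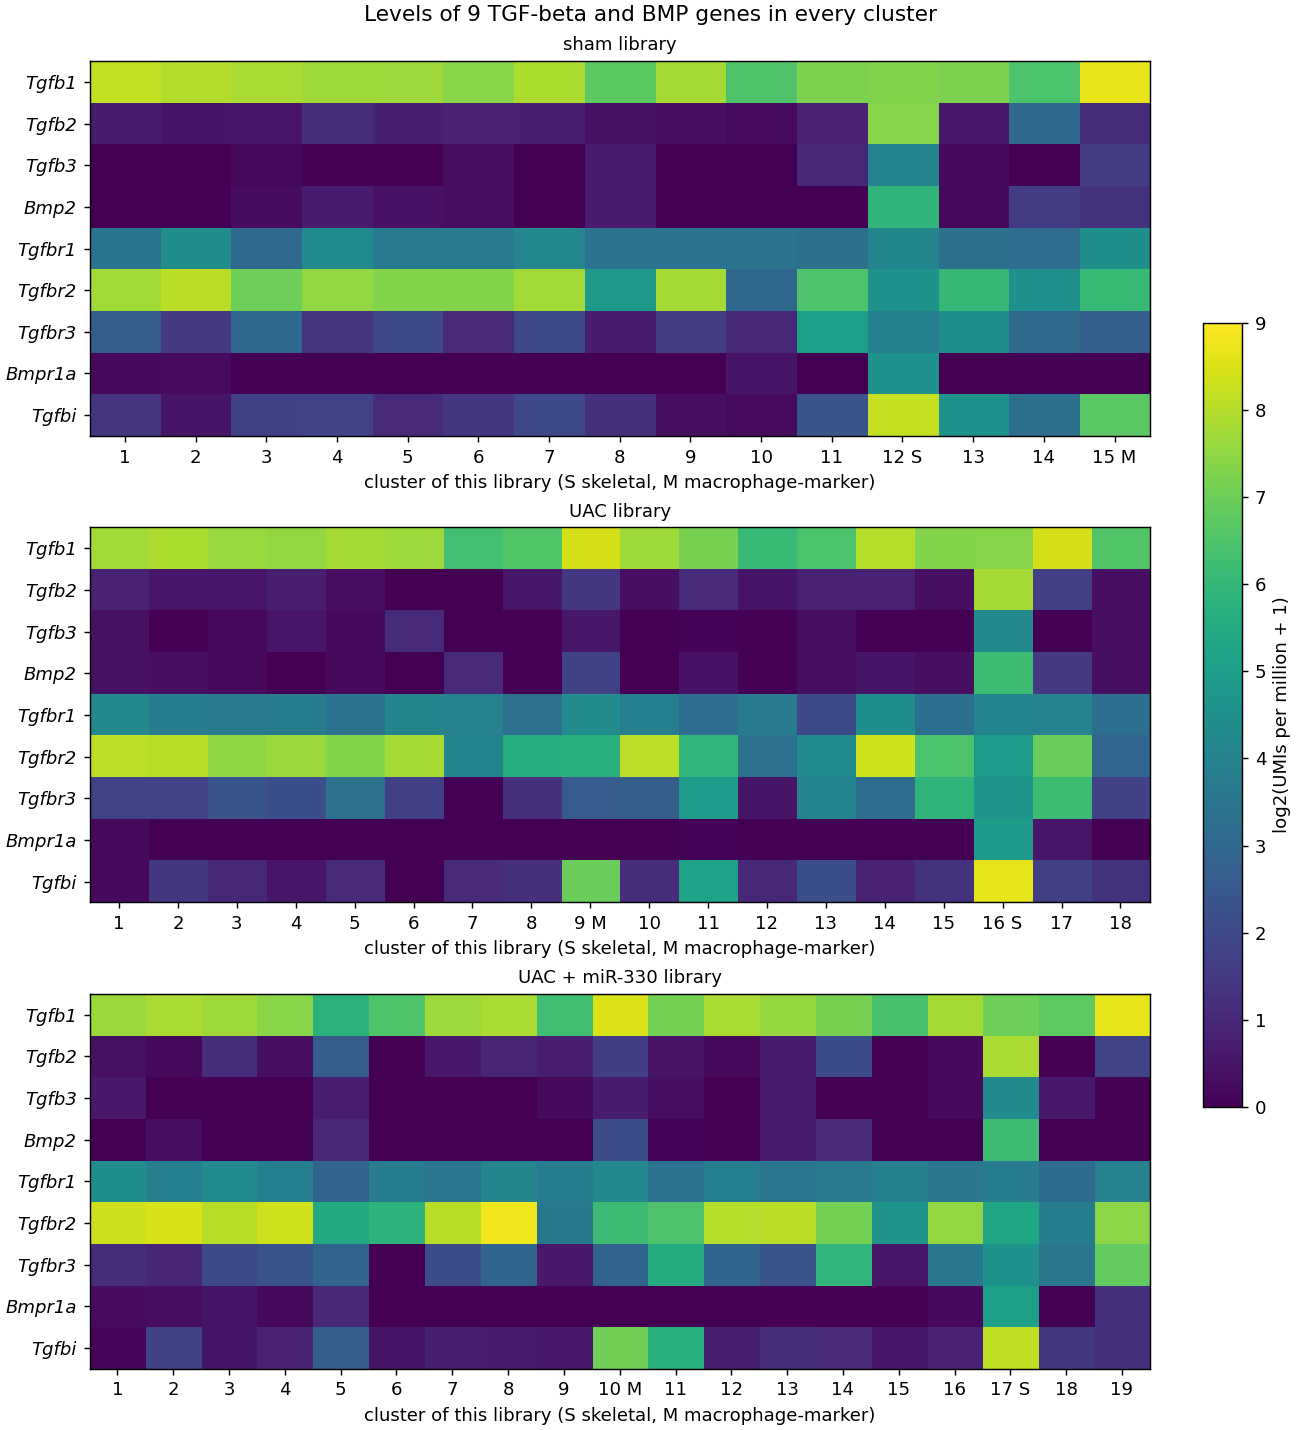
Level of each of the 9 genes in every cluster of each library, as log2(CPM + 1), with 1 square per gene and cluster (S, skeletal cluster; M, macrophage-marker cluster). Tgfb2, Tgfb3, Bmp2 and Bmpr1a are bright in the S column alone, Tgfbi in the S and M columns and, less so, in the Car1 cluster (columns 13, 11 and 11), and Tgfb1 and Tgfbr2 in most columns.

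Tgfb1, the ligand gene made by most blood cells and platelets, was detected in all 52 clusters. Its highest levels were 402 CPM (381 to 424) in the sham macrophage-marker cluster, 344 CPM (320 to 370) in the UAC T or NK cell cluster and 408 CPM (383 to 435) in the UAC + miR-330 T or NK cell cluster. The macrophage-marker cluster stood at 342 CPM (327 to 358) in the UAC library, not apart from the T or NK cells, and at 355 CPM (340 to 371) in the UAC + miR-330 library, below them. The median cluster had 203, 191 and 189 CPM, and the lowest levels were 87.1, 67.1 and 53.9 CPM. They lay in a sham cluster with haemoglobin and immunoglobulin genes, in UAC neutrophils and in a UAC + miR-330 cluster that also had haemoglobin and immunoglobulin genes. The sham cluster had 8 mast cell or basophil markers enriched and the UAC + miR-330 cluster 0, so the 2 differed in content. Tgfb1 thus varied 4.61-fold, 5.13-fold and 7.57-fold between its highest and lowest clusters, and neutrophil clusters were at the low end with 67.1 to 106 CPM.

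In the skeletal cluster Tgfb1 stood at 155 CPM (147 to 163), 162 CPM (152 to 173) and 127 CPM (118 to 136), which was place 10 of 15, 11 of 18 and 14 of 19 clusters. The sham and UAC intervals overlapped and the UAC + miR-330 level lay below both, although with unscaled means it lay above the sham level. Only 9.16%, 5.69% and 4.23% of all Tgfb1 UMIs came from this cluster. Over the whole library Tgfb1 was at 197, 184 and 182 CPM.

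Tgfb2, the isoform whose signal depends most on the betaglycan co-receptor, was close to confined to the skeletal cluster, which held 96.7%, 95.8% and 94.9% of its UMIs. Its levels there were 165 CPM (157 to 174), 222 CPM (210 to 234) and 232 CPM (220 to 245), so both UAC libraries lay above the sham library and their intervals overlapped each other. The next highest clusters had 7.10, 2.28 and 5.29 CPM. RNA of the skeletal cluster was also found in other clusters at a low share: the median chondrocyte marker stood at 0.341%, 0.210% and 0.141% of its skeletal level in the middle cluster outside it, and at 4.42%, 0.457% and 3.18% in the cluster with the most. Tgfb2 in that sham cluster was at 4.30% of its skeletal level, and in that UAC + miR-330 cluster at 2.28%, neither above the median of the chondrocyte markers there. Tgfb2 was above the highest chondrocyte marker, with its interval too, in other clusters, among them the macrophage-marker cluster of both UAC libraries (0.767% against 0.312% and 0.936% against 0.376%) and, in the UAC + miR-330 library, the cluster highest in Dntt (1.31% against 0.234%) and T or NK cells (1.11% against 0.245%).

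Tgfb3, the remaining isoform, known for its use in cartilage formation, had few UMIs. The skeletal cluster held 139, 112 and 111 of them, at 15.4 CPM (13.0 to 18.2), 18.7 CPM (15.4 to 22.5) and 18.9 CPM (15.5 to 22.7), with all intervals overlapping. It was at 0 in 8 of 15, 8 of 18 and 10 of 19 clusters, and the skeletal cluster held 88.5%, 88.2% and 84.7% of its UMIs. A difference between libraries was not detectable for Tgfb3 at this depth in the skeletal cluster.

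Bmp2, the bone-inducing ligand gene, followed the same cluster pattern, with 58.3 CPM (53.4 to 63.5), 73.4 CPM (66.7 to 80.6) and 71.7 CPM (65.0 to 78.9) in the skeletal cluster and 96.3%, 91.8% and 93.4% of its UMIs there. Outside it the macrophage-marker cluster had 5, 14 and 19 UMIs of Bmp2, or 1.48, 2.39 and 3.17 CPM. These are 2.53%, 3.25% and 4.43% of the skeletal level, above the highest chondrocyte marker in the same cluster (1.19%, 0.312% and 0.376%), although in the sham library the interval of 5 UMIs (0.48 to 3.45 CPM) includes the share of that marker. Where these UMIs came from was not tested. Bmp2 was at 0 in 6, 5 and 12 clusters.

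Among the receptors, Tgfbr1, the kinase that passes the signal to SMAD2 and SMAD3, was spread over all 52 clusters. Its lowest levels were 7.43, 2.92 and 6.35 CPM and its highest 21.3, 21.1 and 21.6 CPM, a range of 2.86-fold, 7.21-fold and 3.40-fold. The highest and second highest clusters were not apart in any library. In the skeletal cluster it stood at 16.6 CPM (14.1 to 19.5), 15.7 CPM (12.7 to 19.2) and 12.7 CPM (10.0 to 16.0), with all intervals overlapping.

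Tgfbr2, the receptor that binds TGF-beta first, was highest in clusters named B cell or dendritic cell. In the sham library a B cell cluster led with 267 CPM (252 to 282). In the UAC and UAC + miR-330 libraries the cluster named dendritic cell led with 326 CPM (303 to 350) and 448 CPM (425 to 473). Each was apart from the second highest, a B cell cluster. The cluster named dendritic cell had 3 and 4 dendritic cell markers enriched, and also the B cell markers Ms4a1 and Cd22. Its B cell list summed higher than its dendritic cell list, as given below, so dendritic and B cells were not told apart there. Neutrophil-type clusters had the lowest levels, 7.15, 6.67 and 11.5 CPM, so the range between clusters was 37.3-fold, 48.8-fold and 38.8-fold.

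The skeletal cluster was near the bottom for Tgfbr2, at place 13 of 15, 14 of 18 and 16 of 19, with 23.7 CPM (20.7 to 27.1), 29.6 CPM (25.4 to 34.3) and 38.9 CPM (34.0 to 44.3) and 2.38%, 1.52% and 1.31% of its UMIs. The sham and UAC + miR-330 intervals were apart. The 15 B cell markers summed to 770, 667 and 641 CPM in the skeletal cluster with 14, 15 and 14 present, led by Cd24 at 323 CPM, Ebf1 at 297 CPM and Cd24 at 353 CPM, with Cd79al at 0 in the sham and UAC + miR-330 libraries. Free RNA of blood cells was not treated, and its part in the Tgfbr2 level was not tested.

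Tgfbr3 had another pattern, with the highest level in a cluster with genes of early lymphocytes or in T and NK cells. The early lymphocyte cluster of the sham library also had the T or NK cell markers Cd3g, Lck and Cd5 enriched. In the sham library the cluster highest in Dntt, the DNA polymerase of early lymphocytes, led with 33.0 CPM (27.5 to 39.3), ahead of the cluster highest in Car1, a carbonic anhydrase of red cell precursors, with 21.1 CPM (18.5 to 23.9), and the skeletal cluster with 14.2 CPM (11.8 to 16.9). In the UAC library T or NK cells had 73.0 CPM (62.2 to 85.3) and the Dntt cluster 56.7 CPM (48.8 to 65.4), not apart, and in the UAC + miR-330 library they had 115 CPM (101 to 129) and 60.2 CPM (52.5 to 68.8), apart. The skeletal cluster took place 3 in the sham library and place 4 in the others, with 24.4 CPM (20.6 to 28.7) in the UAC library and 23.8 CPM (20.0 to 28.1) in the UAC + miR-330 library.

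Endothelial markers lay in different clusters in the libraries, and betaglycan is a receptor that endothelial cells also carry. The 9 matched endothelial markers summed to 64.6, 8.19 and 7.82 CPM in the skeletal cluster, where 9, 5 and 3 of them had UMIs; Emcn led in the sham library with 17.5 CPM and Egfl7 in the others with 6.02 and 6.29 CPM, and Cdh5, Kdr, Emcn and Tek were at 0 in both UAC libraries, with Esam and Flt1 also at 0 in the UAC + miR-330 library. In the Dntt cluster the same list summed to 193, 231 and 302 CPM, with 7, 9 and 9 markers present, Egfl7, Egfl7 and Tie1 leading at 123, 116 and 85.2 CPM, and Cdh5 and Kdr at 0 in the sham library alone. The part of these markers in the level of Tgfbr3 in the skeletal cluster and in the Dntt cluster was not tested.

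Bmpr1a, a type I receptor for BMP2 and BMP4, had 98.2%, 98.3% and 93.8% of its UMIs in the skeletal cluster, the largest share of any member in the sham and UAC libraries, at 23.7 CPM (20.7 to 27.1), 29.3 CPM (25.1 to 33.9) and 33.3 CPM (28.8 to 38.3). It was at 0 in 11, 14 and 11 clusters. In the macrophage-marker cluster 0 UMIs were found in all 3 libraries, which allows up to 0.886, 0.511 and 0.501 CPM, the level of 3 UMIs. Bmp2 and its receptor gene thus shared 1 cluster, while Tgfb2 and Tgfbr2 had their highest levels in different ones.

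Tgfbi encodes a secreted matrix protein that TGF-beta induces in many cells, and its UMIs came from several clusters here. The skeletal cluster had 298 CPM (287 to 310), 401 CPM (385 to 417) and 280 CPM (266 to 294), and the macrophage-marker cluster 103 CPM (92.3 to 114), 126 CPM (117 to 136) and 130 CPM (121 to 140). The UAC library was the highest of the 3 in the skeletal cluster, and the sham library the lowest in the macrophage-marker cluster. The Car1 cluster took place 3 in every library, with 23.5 CPM (20.7 to 26.5), 36.0 CPM (32.9 to 39.3) and 51.4 CPM (47.9 to 55.1), and the median cluster had 2.42, 1.27 and 0.873 CPM.

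The share of Tgfbi UMIs from the skeletal cluster was 79.0%, 64.5% and 50.05%, that from the macrophage-marker cluster 10.2%, 19.9% and 23.7%, and that from the Car1 cluster 7.81%, 13.3% and 23.96%. With each cluster weighted equally the skeletal share was 65.9%, 68.9% and 58.3%, so the order of the sham and UAC libraries depends on how many UMIs each cluster had. In the Car1 cluster all 9 erythroid markers were present in each library and summed to 699, 1972 and 3480 CPM, led by Hba-a1 with 263, 1001 and 1988 CPM. This list moved with Tgfbi there and its part in the Tgfbi level was not tested.

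**Figure D2:**
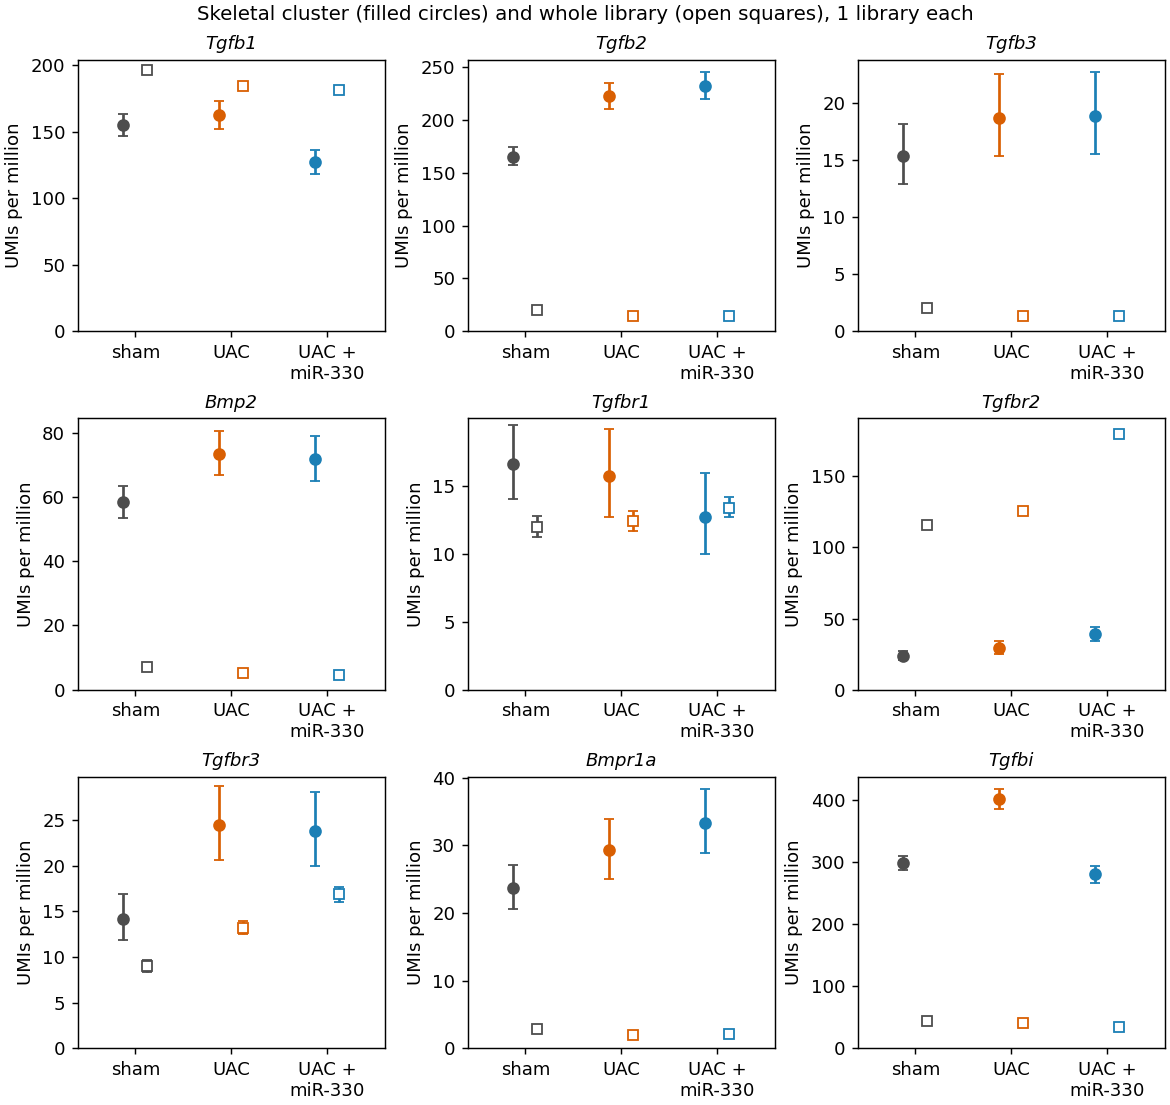
Levels in CPM in the skeletal cluster (filled circles) and over the whole library (open squares), 1 library per point, with exact Poisson 95% intervals as bars. Tgfb2, Bmp2 and Bmpr1a lie higher in the UAC than in the sham skeletal cluster but lower over the whole UAC library, under each of the 4 scalings compared, and Tgfbr2 lies highest in the UAC + miR-330 library in both.

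The first comparison, UAC against sham with the same vector, asks what the crossbite changes. In the skeletal cluster Tgfbr3 rose from 14.2 to 24.4 CPM, a log2 ratio of 0.78 (0.43 to 1.14), under each scaling at 1.5-fold and not at 2-fold. It was 1 of 9 members counted as higher, and 0 were lower, against 10.5% of 10052 genes higher and 1.61% lower, so the count of members is near that of all genes. The 12 neutrophil markers summed to 1260 and 4405 CPM in these 2 clusters with 11 and 12 present, led by S100a9, with Ltf at 0 in the sham library, and their part in the ratios was not tested. The other ratios were 0.43 (0.32 to 0.53) for Tgfb2, 0.43 (0.35 to 0.51) for Tgfbi, 0.33 (0.15 to 0.52) for Bmp2, 0.32 (0.02 to 0.61) for Tgfbr2, 0.30 (0.01 to 0.60) for Bmpr1a and 0.28 (−0.09 to 0.65) for Tgfb3. The median of all genes was 0.14, so the ligands Tgfb2 and Bmp2 lay above it by less than the fold used, although Tgfb2 and Tgfbi passed the fold with unscaled means. Tgfb1 at 0.07 and Tgfbr1 at −0.08 had intervals that include 0, and their signs changed with the scaling, Tgfb1 when centred on the median and Tgfbr1 when the deposited means were left unscaled.

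Leaving the deposited means unscaled adds 0.20 to every log2 ratio of UAC against sham and 0.24 to every ratio of UAC + miR-330 against UAC, so all changes are relative to the scaling used. Over all genes of the skeletal cluster 1056 were higher and 162 lower, 652 and 291 when centred on the median ratio, and 2190 and 74 unscaled.

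Over the whole library several of these genes had the other sign. Tgfb2 went from 19.8 to 15.0 CPM with a log2 ratio of −0.41 (−0.51 to −0.30), Bmp2 from 7.03 to 5.16 CPM with −0.45 (−0.63 to −0.27), Tgfb3 from 2.02 to 1.37 CPM with −0.56 (−0.91 to −0.21) and Bmpr1a from 2.81 to 1.92 CPM with −0.55 (−0.84 to −0.25). For these 4 genes the skeletal cluster gave 84.7% or more of the UMIs in each library, and its own share of UMIs was 11.6% in the sham and 6.46% in the UAC library. For Tgfb2, Bmp2 and Bmpr1a the ratios within the cluster and over the whole library therefore differ in sign under each scaling. The skeletal interval of Tgfb3 includes 0, and that of Bmpr1a does when shifted to the median ratio. Whether fewer skeletal cells were captured or each held less RNA cannot be told apart.

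Tgfbr3 had the largest positive ratio of the members over the whole library, 0.56 (0.42 to 0.69), from 8.99 to 13.2 CPM, which passed the fold with unscaled means. The 13 T or NK cell markers, all present, summed to 121 and 184 CPM over these libraries, led by Nkg7 at 35.7 and 55.2 CPM, and the UAC T or NK cell cluster gave 13.1% of the Tgfbr3 UMIs of its library, while the sham library had no cluster of this name; their part in the ratio was not tested. Tgfbr2 was at 116 and 126 CPM, a ratio of 0.12 (0.08 to 0.16), and Tgfbr1 at 12.03 and 12.4 CPM. Tgfb1 at −0.09 and Tgfbi at −0.13 turned positive with unscaled means. In all, 0 of 9 members passed 1.5-fold in the whole library, against 6.97% of 14235 genes higher and 6.05% lower, a background at which a count of 0 among 9 is no result about them. Over all genes 992 were higher and 861 lower, and 1712 and 503 with unscaled means.

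Without the skeletal cluster, an alternative chosen after the values were seen, Tgfbi was at 10.4 CPM in the sham and 15.2 CPM in the UAC library, a ratio of 0.54 (0.41 to 0.68), and Tgfbr3 at 8.30 and 12.4 CPM, a ratio of 0.58 (0.44 to 0.73). The Tgfbi RNA outside the skeletal cluster was thus higher in the UAC library, with 717 and 1318 UMIs. The macrophage-marker cluster held 348 and 741 of them, and its own share of library UMIs was 4.36% and 6.33%. The part of this shift in the Tgfbi ratio was not tested. Outside the skeletal cluster Bmp2 passed the fold, from 0.291 to 0.450 CPM with 20 and 39 UMIs, but its ratio of 0.61 (−0.19 to 1.48) has an interval that includes 0, and 10.8% of 13539 genes passed the fold either way.

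In the macrophage-marker cluster 4 of the 9 members had enough UMIs, and 0 of 4 passed the fold, against 3.73% of 8585 genes higher and 9.62% lower. Tgfb1 was at 402 and 342 CPM, a ratio of −0.23 (−0.33 to −0.13), Tgfbr2 at 65.3 and 51.1 CPM, a ratio of −0.35 (−0.61 to −0.10), and Tgfbi at 103 and 126 CPM, a ratio of 0.30 (0.11 to 0.48), and Tgfbr1 at 21.3 and 20.1 CPM turned positive with unscaled means. Tgfb1 and Tgfbr2 were therefore lower and Tgfbi higher in the UAC cluster by less than the fold, under each scaling, with Tgfb1 at −0.04 when unscaled. All genes gave 320 higher and 826 lower, 422 and 691 when centred, and 762 and 468 unscaled. Markers of other cells moved in the same cluster: the 9 erythroid markers summed to 1155, 50.8 and 69.7 CPM with none at 0 and Hba-a1 leading at 695, 23.7 and 40.1 CPM, and of the 9 mast cell or basophil markers 9, 8 and 7 were present and summed to 638, 14.0 and 10.0 CPM, led by Mcpt10 at 271, 8.69 and 5.35 CPM, with Tpsab1 at 0 in both UAC libraries and Fcer1a at 0 in the UAC + miR-330 library. The 12 macrophage markers summed to 3267, 2096 and 1957 CPM with none at 0, led by C1qa at 655 CPM, Cd14 at 552 CPM and Cd68 at 420 CPM. The 15 B cell markers summed to 1154, 706 and 720 CPM with 14 present in each library, led by Ebf1 at 690, 382 and 412 CPM and with Cd79al at 0 in all 3. Of the 9 dendritic cell markers 8, 9 and 8 were present and summed to 324, 200 and 306 CPM, led by Irf8 at 161 CPM, Clec10a at 90.7 CPM and Irf8 at 133 CPM, with Cd209a at 0 in the sham and UAC + miR-330 libraries. The part of these markers in the member levels was not tested.

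The second comparison, UAC with miR-330 AAV against UAC with Vector AAV, asks what the added microRNA changes; it shares the UAC library with the first, so a high or low value of that library enters both with opposite sign. The label of the library itself names no agent, and it was assigned to miR-330 AAV from the text on the series design, which names miR-330 without an arm. Both mature rat arms are therefore shown, with bases 2 to 8, the seed by which a microRNA pairs with its targets, in capitals; they are from RefSeq on GRCr8, both on the plus strand, at chr1:87961227-87961248 and chr1:87961266-87961288. The seeds of the arms differ.
rno-miR-330-5p: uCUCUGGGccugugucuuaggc
rno-miR-330-3p: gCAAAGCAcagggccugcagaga

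In the skeletal cluster 0 of 9 members passed 1.5-fold in this comparison, against 8.48% of 9798 genes higher and 8.01% lower, where a count of 0 is near the background. The largest ratio belonged to Tgfbi, from 401 to 280 CPM at −0.52 (−0.61 to −0.43), followed by Tgfbr2 from 29.6 to 38.9 CPM at 0.39 (0.11 to 0.69) and Tgfb1 from 162 to 127 CPM at −0.36 (−0.49 to −0.22). These 3 signs held under each scaling, although the interval of Tgfb1 includes 0 when shifted to unscaled means. The ratio of Tgfbr1 was −0.30 (−0.76 to 0.15) and that of Bmpr1a 0.19 (−0.11 to 0.49). Tgfb2 at 0.06, Tgfb3 at 0.01, Tgfbr3 at −0.04 and Bmp2 at −0.03 were close to 0 with intervals that include it, and the last 3 of them changed sign under another scaling. In CPM the ligands Tgfb2, Tgfb3 and Bmp2 thus stood in the UAC + miR-330 skeletal cluster near their UAC level. Shifted to unscaled means, the intervals of Tgfb2 and Bmp2 lie above 0. Tgfbi stood near its sham level of 298 CPM, above that level with unscaled means. All genes gave 831 higher and 785 lower, and 2000 and 402 unscaled.

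Several marker lists of the skeletal cluster were at their highest or lowest in the UAC library, as Tgfbi was. Of the 8 osteoclast markers 4 had UMIs in each library and summed to 204, 297 and 170 CPM, led by Ctsk with 177, 260 and 153 CPM, and Atp6v0d2, Ocstamp, Dcstamp and Calcr were at 0. The 12 neutrophil markers summed to 1260, 4405 and 870 CPM with 11, 12 and 11 present, led by S100a9 at 495 and 1891 CPM and then S100a8 at 335 CPM, with Ltf at 0 in the sham and UAC + miR-330 libraries. The 20 chondrocyte markers summed to 66085, 52536 and 67795 CPM with 20, 19 and 19 present, led by Col2a1 with 27180, 19379 and 24344 CPM. The 8 early granulocyte markers summed to 32.6, 123 and 29.2 CPM with 6, 8 and 8 present, led by Srgn at 27.5, 103 and 23.3 CPM, with Prtn3 and Ms4a3 at 0 in the sham library. Their part in the Tgfbi level was not tested.

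Over the whole library Tgfbr2 had the largest ratio of the members, from 126 to 180 CPM at 0.52 (0.48 to 0.55), followed by Tgfbr3 from 13.2 to 16.8 CPM at 0.35 (0.24 to 0.46). Tgfbi went from 40.1 to 33.8 CPM at −0.25 (−0.31 to −0.18). All 3 signs held under each scaling, with Tgfbi at −0.01 when unscaled. When the skeletal cluster was left out Tgfbi stood at 15.2 and 18.0 CPM, a ratio of 0.24 (0.14 to 0.35), so its sign there depends on that cluster. The median of all genes was 0.13, so Tgfbr2 lay 0.38 above it. In total 0 of 9 members passed the fold, against 11.4% of 14485 genes higher and 3.67% lower. Tgfb1 at −0.02, Tgfb2 at −0.02, Tgfb3 at −0.03 and Bmp2 at −0.15 turned positive with unscaled means, Tgfbr1 at 0.11 turned negative when centred, and Bmpr1a was at 0.16. All genes gave 1648 higher and 532 lower, 931 and 874 when centred, and 4106 and 246 unscaled.

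In the macrophage-marker cluster 0 of the 5 members with enough UMIs passed the fold, against 14.7% of 9076 genes higher and 3.2% lower. Tgfbr2 was at 51.1 and 70.3 CPM, a ratio of 0.46 (0.24 to 0.68). The dendritic cell list given above was also higher, at 200 and 306 CPM. The cell cycle gene Mki67 was at 86.4 and 216 CPM there, and at 55.2 and 45.9 CPM in the skeletal cluster. The part of these markers was not tested. Tgfbr3 was at 4.94 and 6.35 CPM, a ratio of 0.36 (−0.37 to 1.11). Tgfb1 at 342 and 355 CPM, Tgfbi at 126 and 130 CPM and Tgfbr1 at 20.1 and 18.4 CPM had intervals of the ratio that include 0, and their signs changed with the scaling. Tgfbr2 was thus above the UAC level in the skeletal cluster, the macrophage-marker cluster and the whole library alike, by less than the fold, and past it in all 3 with unscaled means, at 0.63, 0.70 and 0.75. All genes gave 1334 higher and 290 lower, 721 and 561 when centred, and 2994 and 126 unscaled.

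The higher Tgfbr2 level of the UAC + miR-330 library was also seen cluster by cluster, in pairs of clusters matched by the gene they were highest in, which were picked after the values were seen. In the cluster highest in Ms4a1, a surface protein of mature B cells, Tgfbr2 stood at 215, 260 and 352 CPM. In the cluster highest in Trpc4 it stood at 267, 273 and 317 CPM, in the Dntt cluster at 87.7, 86.7 and 139 CPM and in the Car1 cluster at 62.2, 60.1 and 89.1 CPM. T or NK cells, highest in the granzyme gene Gzma, went from 124 CPM in the UAC to 171 CPM in the UAC + miR-330 library, and dendritic cells, highest in the lectin gene Siglech, from 326 to 448 CPM. In each of these 6 pairs the UAC + miR-330 interval lay above the UAC interval, and the log2 ratios ran from 0.22 (0.13 to 0.30) in the Trpc4 pair to 0.68 (0.47 to 0.90) in the Dntt pair, where the medians of all genes were 0.06 and 0.07. Each of the 6 ratios lay above the median of all genes in its pair.

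Marker lists moved in the same pairs. The 15 B cell markers, led by Ebf1, summed to 14077, 15286 and 17944 CPM in the Ms4a1 cluster (Cd79al at 0 in the UAC library), to 24288, 25101 and 28256 CPM in the Trpc4 cluster (Cd79al at 0 in the sham and UAC libraries) and to 18427, 17019 and 21234 CPM in the Dntt cluster (Cd79al at 0 in all 3). In the dendritic cell cluster they summed to 4986 and 5697 CPM with 14 and 14 present, led by Ebf1 at 2217 and 2776 CPM and with Cd79al at 0, while 6 and 7 of the 9 dendritic cell markers summed to 893 and 646 CPM, led by Irf8 at 476 and 357 CPM, with Xcr1 and Batf3 at 0 in both and Clec10a at 0 in the UAC library. In the T or NK cell cluster 7 and 9 of the 9 mast cell or basophil markers summed to 32.0 and 2193 CPM, led by Mcpt10 at 17.8 CPM and Cpa3 at 895 CPM, with Fcer1a and Tpsab1 at 0 in the UAC library, while 12 and 12 of the 13 T or NK cell markers summed to 3642 and 3063 CPM, led by Cd3e at 565 CPM and Nkg7 at 438 CPM, with Klrb1 at 0 in both. Between the UAC libraries the cell cycle gene Mki67 went from 548 to 1185 CPM in the Car1 cluster and from 15.1 to 92.2 CPM in T or NK cells. It went from 17.9 to 38.8 CPM in the Dntt cluster and from 8.44 to 17.9 CPM in the Ms4a1 cluster. In the cluster named dendritic cell it went from 3.44 to 8.40 CPM, and in the Trpc4 cluster from 7.73 to 6.59 CPM. The part of these lists and of Mki67 in the levels of Tgfbr2, Tgfbr3 and Tgfb1 in these clusters was not tested.

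Tgfbr3 had enough UMIs in both UAC libraries in 3 of these 6 pairs only, the Dntt, Car1 and T or NK cell pairs. It stood at 33.0, 56.7 and 60.2 CPM in the Dntt cluster, with ratios of 0.78 (0.45 to 1.12) and 0.09 (−0.20 to 0.38), and at 21.1, 29.7 and 46.9 CPM in the Car1 cluster, with ratios of 0.49 (0.26 to 0.73) and 0.66 (0.48 to 0.84). In T or NK cells it went from 73.0 to 115 CPM, a ratio of 0.65 (0.36 to 0.94) where the median of all genes was 0.17. In the Ms4a1 cluster it was lower in the UAC than in the sham library, at 5.28 and 2.52 CPM with 33 and 17 UMIs and a ratio of −1.05 (−2.01 to −0.18), and stood at 0.956 CPM with 7 UMIs in the UAC + miR-330 library, under 50 UMIs with the UAC library. Cd3e, of the T or NK cell list, stood at 14.9, 0.296 and 0.137 CPM in the Ms4a1 cluster and at 22.2, 1.82 and 4.44 CPM in the Dntt cluster. Flt3, of the dendritic cell list, stood at 30.9, 126 and 104 CPM in the Dntt cluster. The sham library had no cluster named T or NK cell, so the contents of matched clusters differed between libraries. The part of Cd3e and Flt3 in the Tgfbr3 levels was not tested. Tgfbr3 was at 1.85, 2.58 and 1.27 CPM in the Trpc4 cluster. It was at 8.61 and 6.46 CPM in the cluster named dendritic cell of the UAC libraries, each pair under 50 UMIs. In the Car1 cluster the erythroid list given above rose with Tgfbr3 in both comparisons, and with Tgfbr2 between the UAC libraries only. The platelet factor gene Pf4 stood at 51.1, 62.8 and 14.5 CPM there. The part of these markers was not tested.

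**Figure D3:**
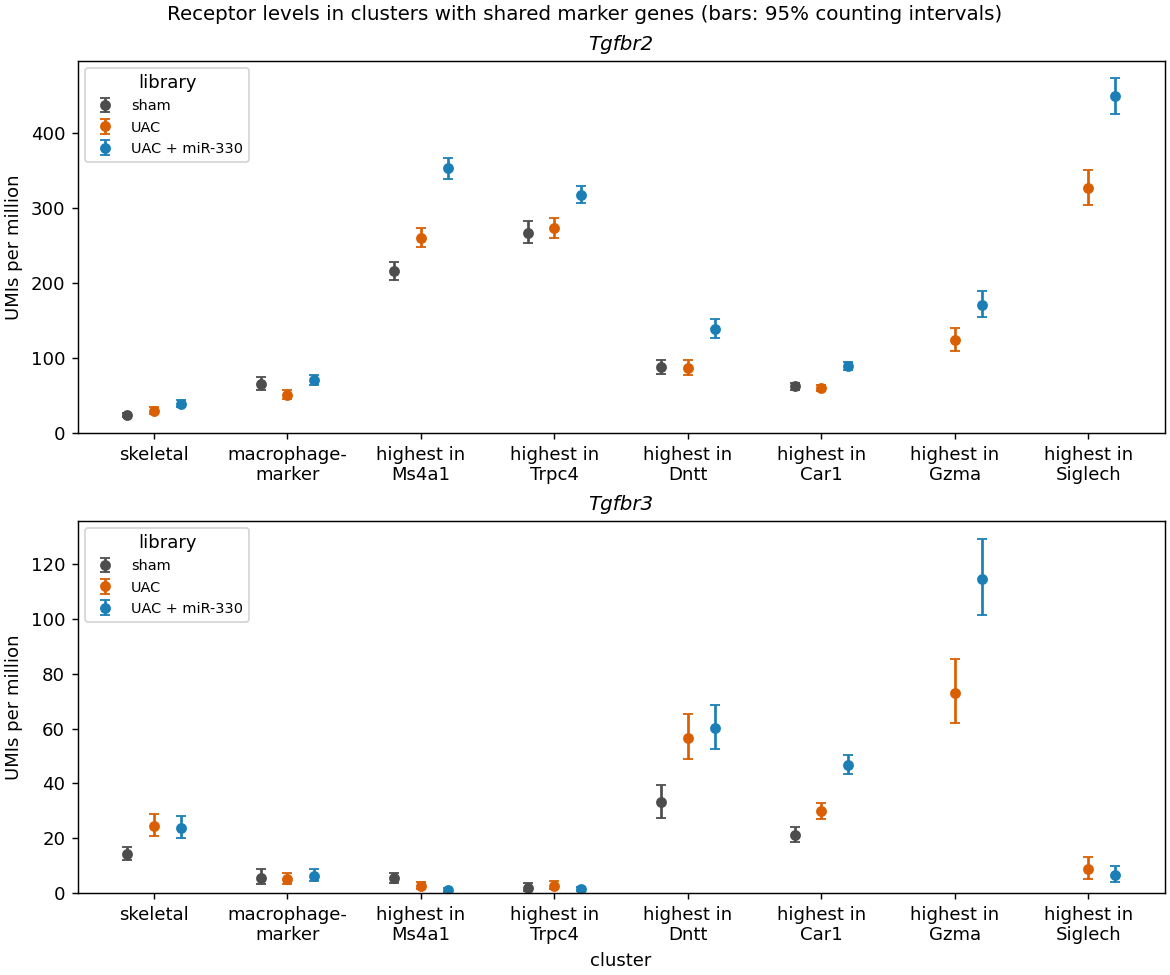
Levels of Tgfbr2 (top) and Tgfbr3 (bottom) in CPM in the skeletal and macrophage-marker clusters and in clusters highest in the same gene. Each point is 1 library, with exact Poisson 95% intervals as bars, and the Gzma and Siglech groups have no sham point. Tgfbr2 lies highest in the UAC + miR-330 library in each of the 8 groups, for example 448 against 326 CPM in the cluster highest in Siglech. In the macrophage-marker cluster (70.3 against 65.3 CPM) the order with the sham library flips when ratios are centred.

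The wider pathway was followed on 112 other genes of 6 lists: further ligands, receptors, latency and activation, extracellular inhibitors, SMADs and their regulators, and genes known to be induced. In the skeletal cluster 15 of 87 genes with enough UMIs were higher in the UAC than in the sham library and 2 lower, 7 and 4 when centred, and 28 and 0 unscaled, with a list median of 0.15 beside 0.14 over all genes. Of all 10052 genes 10.5% were higher and 1.61% lower. By list, 7 of 29 induced genes, 3 of 14 inhibitors, 2 of 11 latency genes, 2 of 6 ligands, 1 of 9 receptors and 0 of 18 SMAD genes were higher, and the lower ones were the ligand Bmp8a and the induced transglutaminase gene Tgm2.

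Among the genes of these lists with the largest ratios, Vcan, a large matrix proteoglycan, rose from 8.09 to 22.4 CPM with 3.18% and 2.31% of its UMIs in this cluster, Tagln, an actin-binding protein and classical TGF-beta target, from 15.3 to 41.1 CPM, and Cyr61 from 175 to 306 CPM. Ltbp2, of the latent TGF-beta binding protein family, rose from 2.22 to 6.52 CPM, Aspn, a small proteoglycan that binds TGF-beta, from 160 to 300 CPM, and the BMP ligand gene Bmp6 from 79.0 to 126 CPM. The activin receptor gene Acvr2a rose from 11.3 to 19.7 CPM, with 5.89% and 5.18% of its UMIs in this cluster, and Tgm2 fell from 82.6 to 49.5 CPM. Bmp6 no longer passed the fold when centred, and Tgm2 and Bmp8a no longer did when unscaled. The part of the neutrophil markers given above in these changes was not tested. Other genes with many UMIs did not pass the fold: Bmpr2, the type II receptor for BMP, was at 135 and 179 CPM (past it when unscaled), Smad3 at 108 and 110 CPM, Smad7 at 97.0 and 99.0 CPM and Fn1 at 2692 and 2755 CPM.

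Against this, 12 of 88 pathway genes were higher in the UAC + miR-330 than in the UAC skeletal cluster and 10 lower, 21 and 5 unscaled, with a list median of 0.01 beside 0.02 over all genes, of which 8.48% were higher and 8.01% lower. Prg4, the lubricin gene of the joint surface, rose from 3.85 to 72.9 CPM, a log2 ratio of 4.22 (3.64 to 4.92), with 6.73% and 57.7% of its UMIs in this cluster and 0.665 CPM from 6 UMIs in the sham library, and Thbs1, an activator of latent TGF-beta, from 24.1 to 111 CPM. Smad4 rose from 19.4 to 36.7 CPM, Zfyve9, which brings SMAD proteins to the receptor, from 33.6 to 60.2 CPM, Skil, a SMAD repressor, from 49.2 to 79.0 CPM, and Runx2, a bone transcription factor, from 517 to 839 CPM. Aspn fell from 300 to 93.8 CPM, Junb from 819 to 406 CPM, Chrd, an antagonist of BMP, from 13.5 to 6.80 CPM and Tagln from 41.1 to 22.3 CPM. Genes of the same lists thus moved both ways. Of the UMIs of Smad4 2.92% and 3.54% lay in this cluster and of those of Skil 2.45% and 2.61%, and the part of the neutrophil markers in these changes was not tested.

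In the macrophage-marker cluster 4 of 53 pathway genes were higher and 8 lower in the UAC than in the sham library, 7 and 8 when centred, and 8 and 8 unscaled, beside 3.73% and 9.62% of all genes. The divergent ligand gene Gdf15 fell from 207 to 57.6 CPM and the activin antagonist Fstl3 from 53.2 to 6.99 CPM, whereas Thbs1 rose from 17.7 to 37.7 CPM and the integrin gene Itgav, whose protein helps to release TGF-beta, from 61.7 to 101 CPM. With miR-330 added, 6 were higher and 8 lower, 2 and 10 when centred, 11 and 5 unscaled, and 3 and 8 without mitochondrial, ribosomal, haemoglobin and immunoglobulin genes in the total, beside 14.7% and 3.2% of all genes. Gdf15 fell again, from 57.6 to 23.2 CPM, and Tgif1, a repressor of SMAD targets, from 164 to 93.04 CPM, whereas Ski rose from 14.0 to 29.1 CPM. The erythroid, mast cell or basophil, macrophage, B cell and dendritic cell lists of this cluster given above moved too, and their part in these changes was not tested.

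Over the whole library 10 of 99 pathway genes were higher and 27 lower in the UAC than in the sham library, and 16 and 20 unscaled, beside 6.97% and 6.05% of all genes. The inhibitors with 7 and the induced genes with 12 made up most of the lower ones, with Bgn from 1173 to 457 CPM, Fmod from 227 to 99.98 CPM and Col1a1 from 6848 to 3096 CPM, and 96.4% and 96.6% of Bgn UMIs lay in the skeletal cluster of these libraries. With miR-330 added, 11 were higher and 5 lower, 6 and 9 when centred, 26 and 3 unscaled, and 7 and 5 without the gene classes named above, beside 11.4% and 3.67% of all genes. Ltbp1 rose from 28.0 to 55.8 CPM there and Col1a2 fell from 127 to 73.7 CPM, the latter not past the fold when unscaled.

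Likeness across clusters was measured as Pearson r of log2(CPM + 1) over the 52 clusters of the 3 libraries, which share cells of origin, depth and leaked RNA within a library, among 8963 genes with at least 500 UMIs in each library. The closest genes to Tgfb2 were Nim1k, Id4 and Epha4, each at 0.96, and those to Bmp2 were Tgfb2 at 0.95, Epha4 at 0.95 and Mmp14 at 0.94. Bmpr1a was closest to Prrx1 and Epha3 at 0.97 and Col13a1 at 0.96, and Tgfb3 to Pde3a, Nrcam and Mmp14 at 0.92. With Spearman rho none of the 3 closest genes of any of these 4 members was the same. These 4 members had most of their UMIs in the skeletal cluster of each library. Their r values thus rest largely on those clusters and restate the cluster pattern given above.

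Tgfbr2 was closest to Txndc16 at 0.98, Ppp2r5c at 0.97 and Jak1 at 0.96, and Tgfbr3 to Cmss1 and Spcs2 at 0.85 and Hes1 at 0.84. Tgfb1 was closest to Iffo1 at 0.89, Pptc7 at 0.88 and Clptm1 at 0.87, Tgfbr1 to Klhl18 at 0.76, Bmt2 at 0.75 and Zfyve16 at 0.74, and Tgfbi to Fam20c at 0.93, Mras at 0.92 and Rab13 at 0.91. With Spearman rho 2 of the 3 genes stayed for Tgfbr1 and Tgfbr3, 1 for Tgfbr2 and 0 for Tgfb1 and Tgfbi.

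The 250 bases before the gene start were read for 8 members from RefSeq on GRCr8; Bmp2 was not read. The GC box letters GGGCGG, on either strand, were found in those of Tgfbr1, Tgfbr2, Tgfbr3 and Tgfbi, 4 of 8, and in 30.5% of 33469 promoters of the same length. The SMAD box letters CAGAC, on either strand, were in 0 of 8 and in 42.9% of all, which says only that these letters are not in this window.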

How the data were processed

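Single-cell libraries of 3 pools were measured, 1 per condition. The authors deposited 1 table per library from Cell Ranger 7.0 graph-based clustering of that library alone, with mean counts, log2 fold changes and adjusted p-values per cluster. Mean counts as deposited hold a normalized signal, in which every cluster has its own divisor, so that each column of a library sums to 4541, 5200 and 6123.5. The log2 fold changes and adjusted p-values compare each cluster with the other clusters and were not used here. Each mean was divided by the smallest positive mean of its column, and 100% of the values came out whole within 0.001, which gave UMIs. Names on several identifiers (101, 106 and 116) were summed. The processing notes name the builds GRCh38 and mm10 although the features are rat genes, so no build is given for the counts; they also name STAR and Seurat 4.0.1, and the described cell filters and Harmony integration belong to clusters not used here. Doublets and free RNA were not treated.

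Work was done in Python 3.11.15 with numpy 2.4.6, pandas 2.3.3, scipy 1.17.1 and matplotlib 3.10.9, and the ratios were tested on simulated data. With 1 library per condition no test was made. Of 182 markers of 17 cell types, 171 matched by the same name, 2 by synonym (RefSeq GRCr8, names only) and 9 not. Of 115 pathway genes 112 matched, and Mstn, Sost and Sostdc1 did not. Clusters were named after the class leading in enriched markers (10 UMIs or more, log2 of 1 or more against the rest of the library, 50 CPM or more), given 3 such markers and no tie, unless its 10 leading genes held more markers of another class; a cluster failing the last condition is compared by number. The members and lists were chosen with earlier results of these data known. The class rule was settled after several versions with the values seen, 1 cluster was left unnamed by hand, and the clusters picked by a single gene and the whole library without the skeletal cluster were chosen after the values were seen. Genes named from the pathway lists were taken from up to 3 with the most UMIs in each list and up to 3 with the largest changes each way. Likeness used the 3 genes with the highest r. A further marker list of the skeletal cluster is not reported here. The alternatives were 5 UMIs added, no minimum of UMIs, a fold of 2, deposited means unscaled, ratios centred on the median ratio, a total without 147 genes of mitochondria, ribosomes, haemoglobin and immunoglobulin (19.0%, 17.6% and 15.7% of UMIs), equal weight per cluster for shares and Spearman rho for likeness.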

Additional observations from a re-analysis of the deposited data

Results flagged for a closer look

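The ratio of Tgfbr2 between the UAC and sham libraries had opposite signs in 2 cell groups. In the skeletal cluster the log2 ratio was 0.3198, from 23.7 to 29.6 CPM, and in the macrophage-marker cluster it was −0.3537, from 65.3 to 51.1 CPM, with intervals on opposite sides of 0. Centred on the median ratio they were 0.18 and −0.29, and with unscaled means 0.52 and −0.16. With the same shift the skeletal interval includes 0 when centred, and the macrophage-marker interval includes 0 when unscaled. In the macrophage-marker cluster the B cell list also went from 1154 to 706 CPM and the dendritic cell list from 324 to 200 CPM, and their part was not tested. Each group is 1 cluster of 1 library per condition, and the difference was not tested.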

How the results depend on the processing

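With 5 UMIs added, 45 of 45 member ratios stayed within their counting interval, and so did 44 with the reduced total, 34 centred on the median and 18 unscaled; the sign changed in 0, 1, 5 and 11. The count of members past 1.5-fold between UAC and sham went from 0 to 1 in the whole library with unscaled means (where 15.6% of all genes passed) and to 1 without the skeletal cluster (Bmp2, 20 and 39 UMIs, where 10.8% of all genes passed), from 1 to 3 in the skeletal cluster unscaled (22.5% of all genes) and to 0 at 2-fold, and from 0 to 2 in the macrophage-marker cluster with no minimum, where 38.9% of all genes passed. Between UAC + miR-330 and UAC, unscaled means moved it from 0 to 2 in the whole library, 1 in the skeletal and 2 in the macrophage-marker cluster, where 30.0%, 24.5% and 34.4% of all genes passed. Pathway genes past the fold between UAC and sham went from 37 to 16 at 2-fold in the whole library, from 17 to 28 unscaled, 11 centred, 32 with no minimum and 3 at 2-fold in the skeletal cluster, and from 12 to 42 with no minimum in the macrophage-marker cluster. Between UAC + miR-330 and UAC they went from 16 to 29 unscaled, 25 with no minimum and 4 at 2-fold in the whole library, from 22 to 35 with no minimum and 4 at 2-fold in the skeletal cluster, and from 14 to 38 with no minimum and 4 at 2-fold in the macrophage-marker cluster. Unscaled and centred ratios shift all genes by 1 number, a larger fold passes fewer genes and no minimum tests more of them; for the other settings the cause was not tested. Equal weight per cluster moved 15 of 27 skeletal shares out of their interval. No paired analysis was possible because each condition had 1 library, and the number of UMIs limits Tgfb3, Bmpr1a and Tgfbr1 in single clusters.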
